A study of Homo sapiens and Mus musculus with 10 samples.

Results

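Tetraspanins and vesicle sorting genes were followed in A375 cells, an established human melanoma line, given the peptide LL-37. The set was 10 genes picked by symbol out of the 63140 gene rows of the human expression table. It held 6 tetraspanins (CD9, CD63, CD81, CD82, CD151 and TSPAN4) and 4 sorting and release genes (PDCD6IP, TSG101, SDCBP and RAB27B). They were chosen with results of the same comparison known, so their values are given as a description and without a test. The LL-37 group had 3 libraries of A375 cells treated at 80 µg/mL for 24 h, and the Ctrl group had 3 libraries of A375 cells left untreated. LL-37 is an antimicrobial peptide released from the cathelicidin precursor, and the question of the comparison was its effect on melanoma transcripts. All libraries come from a single line, for which the labels name no genotype. The 4 mouse libraries of the series were not used here.

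Exosomes are small vesicles that form when the membrane of a late endosome buds inwards and that leave the cell when this compartment meets the plasma membrane. Tetraspanins are proteins that cross the membrane 4 times and gather integrins, immunoglobulin proteins and proteases into patches, and CD9, CD63 and CD81 are the usual protein markers of purified vesicles. The budding step uses the ESCRT complexes, to which TSG101 belongs, with ALIX, the product of PDCD6IP, and syntenin, the product of SDCBP, as a side route that brings in syndecans. RAB27B, with RAB27A, brings the filled compartment to the plasma membrane. Transcript levels say nothing of how many vesicles were released or what they carried.

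The loci and the start regions of the genes give the frame for the values that follow. In GENCODE 29 on GRCh38, 5 of the 10 genes lie on chromosome 11. CD151 (832843 to 839831) and TSPAN4 (842808 to 867116) are neighbours on the plus strand of chromosome 11, 2976 bases apart, with POLR2L between them. CD81 lies further along chromosome 11 (2376177 to 2397419, plus strand), followed by TSG101 (18468336 to 18527232, minus strand) and CD82 (44564427 to 44620363, plus strand). CD9 (6199715 to 6238271, plus strand) and CD63 (55725323 to 55729707, minus strand) are on chromosome 12. PDCD6IP is on chromosome 3 (33798352 to 33869707, plus strand). POLR2L, read from the other strand, shares 257 exonic bases with CD151 and averaged 114.0 TPM. The libraries were stranded, but whether the counting used the strand is not given in the sources used here, so part of the CD151 level may belong to POLR2L. Pseudogene copies of PDCD6IP and SDCBP were listed at 0 to 0.00667 TPM on average.

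Start regions are shown for CD9, the member whose level was higher with LL-37 in every library, and for CD82, a tetraspanin at a far lower level. Each is the part of the 250 bases before an annotated start that lies outside annotated exons, from RefSeq on GRCh38.p14. Where a gene had several starts, the start with the most GENCODE 29 transcript starts near it was taken. Capitals mark the GC box GGGCGG, the site bound by SP1-type factors, on either strand, with overlaps allowed.
CD9, chr12:6200150-6200315, plus strand: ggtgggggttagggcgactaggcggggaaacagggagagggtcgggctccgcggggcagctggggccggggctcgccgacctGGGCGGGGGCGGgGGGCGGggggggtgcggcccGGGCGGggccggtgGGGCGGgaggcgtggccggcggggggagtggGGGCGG
CD82, chr11:44565413-44565590, plus strand: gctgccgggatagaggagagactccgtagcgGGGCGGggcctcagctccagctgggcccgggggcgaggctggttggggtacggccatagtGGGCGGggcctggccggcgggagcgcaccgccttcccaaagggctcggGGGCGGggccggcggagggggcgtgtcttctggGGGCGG

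In the full 250 bases, CD9 held 6 GC boxes and 28 CpG dinucleotides, CD82 held 4 and 26, and RAB27B held 1 and 4. By these counts the start regions of CD9 and CD82 were alike, although their levels were far apart. Over 35116 start regions of this length, 42.6% held a GC box and the median CpG number was 11. Among the 7 members with an entry, CD63 and PDCD6IP each held an E-box, CACGTG, which 6.34% of the regions held. CD63 alone held an AP-1 site, TGANTCA with N for any base, which 6.57% held. Annotated exons of the same gene covered 211 of the 250 bases for CD63 and all 250 for PDCD6IP. None of the 7 held the TATA box TATAAA, which 10.7% held, or the CCAAT box CCAAT, which 32.0% held. Both strands were searched. These matches describe the reference letters and were not tied to any measured binding.

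Expression was deposited as TPM, a level per transcript length that sums to the same total in every library. Levels of different genes can therefore be set side by side, but the read depth behind them is unknown, which leaves counting error without an interval. LL-37 replicate 3 stood apart. Over the 14399 tested genes its log2 levels correlated with those of the other 5 libraries at 0.949 to 0.963, against 0.985 to 0.992 among the others, and 12991 genes reached 1 TPM in it, where the others had 14304 to 14555. Its deviation from the mean of the other 5 followed transcript length, with a Spearman rho of -0.55 over the 13878 genes with a length, a description over genes that share that library. Differences are given with and without this library. SOX10, S100B and MITF, markers of the melanocyte lineage, were at 147 to 387, 27.1 to 38.2 and 1.75 to 5.45 TPM. Of the pigment genes, MLANA and TYR were at 0.02 TPM or less, DCT at 0.19 to 0.74 TPM and PMEL at 0.12 to 1.25 TPM. The extraction protocol names keratinocytes as the source of the RNA, whereas the labels name A375. The keratinocyte markers KRT1, DSG3 and KRT6A were listed at 0 in all 6 libraries and KRT5 at 0.14 TPM or less. KRT14 was at 1.15 to 1.98 TPM, DSC3 at 0.92 to 2.35 TPM and KRT10 at 18.4 to 26.1 TPM. The summed level of the 7 keratinocyte markers was 21.3 to 26.8 TPM in LL-37 libraries and 28.8 to 29.96 TPM in Ctrl libraries, with KRT10 as its largest part, and its part in the results was not tested. The summed levels of fibroblast and endothelial markers were 2.31 to 6.57 and 0.94 to 3.27 TPM in LL-37 libraries, and 6.17 to 6.22 and 2.08 to 2.56 TPM in Ctrl libraries, both overlapping. In bulk RNA, fewer cells of a type and less RNA per cell cannot be told apart.

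CD63 was by far the most abundant member and RAB27B the least. CD63, the tetraspanin of late endosomes and lysosomes, averaged 1147 ± 203 TPM in LL-37 cells and 1044 ± 47.8 TPM in Ctrl cells (SD, n = 3 each), and its Ctrl mean was above that of 99.0% of tested genes. CD9 came second in both groups. The LL-37 order then ran CD151, CD81, SDCBP, TSG101, TSPAN4, PDCD6IP, CD82 and RAB27B. The Ctrl order ran CD81, SDCBP, CD151, TSG101, PDCD6IP, TSPAN4, CD82 and RAB27B. In LL-37 cells the ranges of CD151, CD81, SDCBP and TSG101 overlapped in turn, as did those of TSPAN4 and PDCD6IP and of CD82 and RAB27B. In Ctrl cells CD81, SDCBP and CD151 overlapped in turn, and so did PDCD6IP and TSPAN4. CD63, CD9, TSG101, CD82 and RAB27B held the same rank in both groups, 5 of 10. CD82 and RAB27B lay far below the rest in every library.

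**Figure D1:**
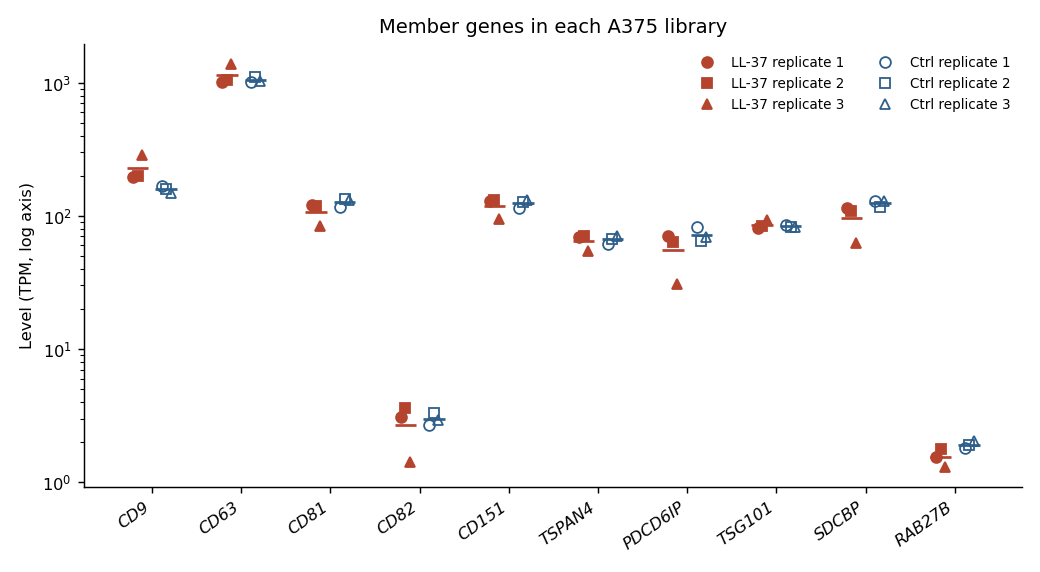
Level of each member gene in TPM (log axis) in each A375 library. Filled red symbols are LL-37 libraries and open blue symbols Ctrl libraries, with the symbol shape giving the replicate number and the short line the group mean. CD9 lies higher in all 3 LL-37 libraries, and LL-37 replicate 3 (red triangle) lies apart from its group for most members.

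CD9 was the one member that was higher in every LL-37 library than in every Ctrl library. CD9 (ENSG00000010278) partners with integrins and with the immunoglobulin protein PTGFRN, and is known for its part in egg and sperm fusion. It stood at 196.67, 199.99 and 284.48 TPM in LL-37 replicates 1 to 3, against 168.41, 159.6 and 148.19 TPM in Ctrl replicates 1 to 3. The groups did not overlap, and LL-37 replicate 3 was the highest. The means were 227 ± 49.8 TPM in LL-37 cells and 159 ± 10.1 TPM in Ctrl cells, a ratio of 1.43 that was 1.25 without LL-37 replicate 3. On the log2(TPM + 1) scale, which understates differences of low genes, the difference was 0.49 ± 0.17, and 0.32 ± 0.07 without LL-37 replicate 3 (SE from the fit over all genes). Of the 10 members, 1 was higher without overlap and 2 were lower, where 12.4% of tested genes had groups apart in either direction. Without LL-37 replicate 3 the count was again 1 higher and 2 lower, where 25.1% of genes had groups apart, and nothing is read from either count because this comparison was used in choosing the genes.

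CD63 (ENSG00000135404) stood at 1008.15, 1052.49 and 1379.05 TPM in LL-37 replicates 1 to 3, against 1010.7, 1099.1 and 1023.36 TPM in Ctrl replicates 1 to 3. LL-37 replicates 1 and 2 lay within the Ctrl range or just below it, and LL-37 replicate 3 alone was high. The log2 difference of CD63 was 0.12 ± 0.13, and -0.02 ± 0.06 without LL-37 replicate 3.

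CD81 (ENSG00000110651), also an entry receptor of hepatitis C virus, stood at 120.05, 117.84 and 84.32 TPM in LL-37 cells, against 117.27, 133.32 and 130.63 TPM in Ctrl cells. The groups overlapped through Ctrl replicate 1. Its log2 difference was -0.26 ± 0.16, and -0.09 ± 0.07 without LL-37 replicate 3. CD151 (ENSG00000177697), which binds laminin-receptor integrins, stood at 130.11, 130.47 and 94.86 TPM in LL-37 cells, against 113.61, 127.43 and 132.01 TPM in Ctrl cells. TSPAN4 (ENSG00000214063), a tetraspanin of the migrasomes that moving cells leave behind, stood at 69.73, 70.26 and 54.83 TPM in LL-37 cells, against 61.38, 67.28 and 70.97 TPM in Ctrl cells. For both, LL-37 replicates 1 and 2 lay within the Ctrl range and LL-37 replicate 3 below it. The log2 difference of CD151 was -0.08 ± 0.16, and 0.07 ± 0.08 without LL-37 replicate 3. That of TSPAN4 was -0.04 ± 0.14, and 0.07 ± 0.08 without it. CD82 (ENSG00000085117), known as a suppressor of metastasis, was low, at 3.08, 3.58 and 1.41 TPM in LL-37 cells and 2.71, 3.29 and 2.92 TPM in Ctrl cells. Its log2 difference was -0.16 ± 0.27, and 0.12 ± 0.14 without LL-37 replicate 3.

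Of the sorting genes, SDCBP was lower with LL-37 in all libraries, by a narrow margin. The gene lies on chromosome 8 (58552924 to 58582860, plus strand). SDCBP (ENSG00000137575) stood at 115.38, 109.59 and 62.22 TPM in LL-37 cells, against 129.83, 115.89 and 129.19 TPM in Ctrl cells. The highest LL-37 value lay just under the lowest Ctrl value, and LL-37 replicate 3 was far lower than the rest. The log2 difference of SDCBP was -0.43 ± 0.24, and -0.15 ± 0.07 without LL-37 replicate 3. PDCD6IP (ENSG00000170248) stood at 70.45, 63.74 and 30.79 TPM in LL-37 cells, against 82.02, 64.83 and 69.76 TPM in Ctrl cells. Its groups overlapped, and LL-37 replicate 3 lay far below every other library. The log2 difference of PDCD6IP was -0.46 ± 0.31, and -0.10 ± 0.10 without LL-37 replicate 3.

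TSG101 (ENSG00000074319), the ESCRT-I subunit that binds ubiquitinated cargo, was the most even member among Ctrl libraries, with a coefficient of variation of 1.56%. It stood at 81.01, 83.61 and 93.28 TPM in LL-37 cells, against 84.96, 82.99 and 82.49 TPM in Ctrl cells, so that LL-37 replicate 3 alone was high. Its log2 difference was 0.04 ± 0.11, and -0.02 ± 0.06 without LL-37 replicate 3. RAB27B lies on chromosome 18 (54717860 to 54895516, plus strand). RAB27B (ENSG00000041353) stood at 1.54, 1.77 and 1.3 TPM in LL-37 cells, against 1.81, 1.89 and 2.04 TPM in Ctrl cells. The groups did not overlap, but the nearest values, 1.77 and 1.81 TPM, were almost alike. The log2 difference of RAB27B was -0.20 ± 0.15, and -0.13 ± 0.14 without LL-37 replicate 3.

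**Figure D2:**
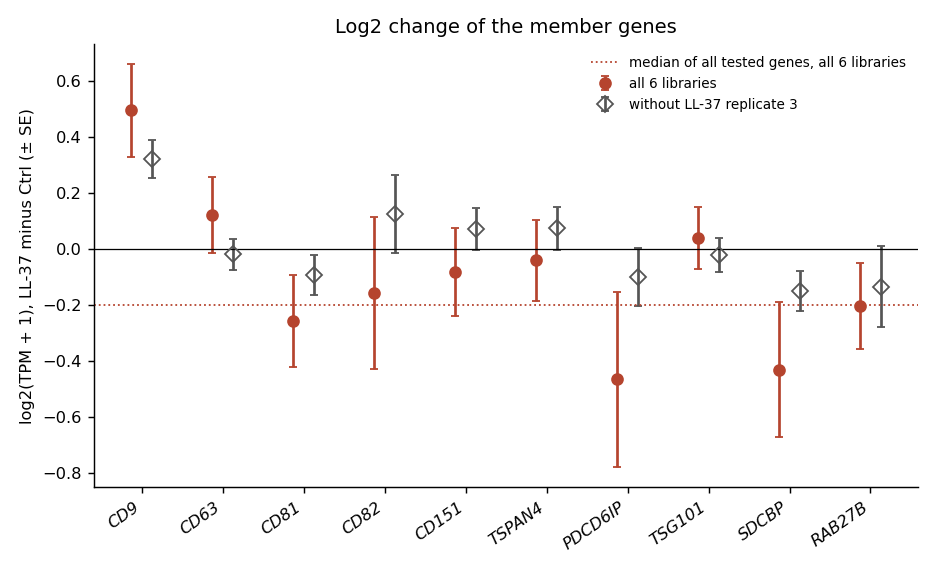
Difference in log2(TPM + 1), LL-37 minus Ctrl, for each member, with all 6 libraries (filled circles) and without LL-37 replicate 3 (open diamonds). Bars are the SE of the fit over all genes, and the dotted line is the median of all tested genes with all libraries, -0.20. CD9 lies highest in both settings, at 0.49 and 0.32, while PDCD6IP and SDCBP move towards 0 when the library is left out.

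Over the set, the median log2 difference of the 10 members was -0.12, and -0.02 without LL-37 replicate 3. The medians of all 14399 tested genes were -0.20 and -0.00. The 6 tetraspanins had medians of -0.06 and 0.07 in these settings, and the 4 sorting and release genes -0.32 and -0.12. In 5 of the 10 members the sign turned when LL-37 replicate 3 was left out: CD63, CD82, CD151, TSPAN4 and TSG101. Each of these 5 differences was smaller than its SE in both settings. The sign also turned in 44 of the 114 tested genes of the pathway lists described below. All 10 members passed the filter of 1 TPM in 3 libraries.

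Because LL-37 replicate 3 departed from the others for most genes, the ratio of members within a library was also taken, which cancels a factor shared by every gene of a library. It does not cancel the departure that varied with transcript length, so ratios of CD9 to the longer CD81, SDCBP, PDCD6IP and RAB27B still carry it, and those to CD63, CD151 and TSG101 are nearer in length. CD9 was higher relative to 8 of the other 9 members, without overlap, with CD82 as the exception. Over all pairs of genes, 13.4% of ratios had groups apart. The TPM of CD9 themselves did not overlap between the groups, so these ratios largely restate the values of CD9 and add no separate support. The ratio of CD9 to CD63 was 0.195, 0.190 and 0.206 in LL-37 libraries, against 0.167, 0.145 and 0.145 in Ctrl libraries. Here LL-37 replicate 3 lay close to its group, and the means were 0.197 ± 0.00833 and 0.152 ± 0.0125 (SD, n = 3 each), a ratio of 1.295 that was 1.265 without that library. The ratio of CD9 to TSG101 was 2.43, 2.39 and 3.05 in LL-37 libraries, against 1.98, 1.92 and 1.80 in Ctrl libraries, again without overlap. Against CD81 it was 1.64, 1.70 and 3.37 in LL-37 libraries and 1.44, 1.197 and 1.13 in Ctrl libraries, with LL-37 replicate 3 far above the rest. Against CD151 the nearest values were 1.51 in LL-37 replicate 1 and 1.48 in Ctrl replicate 1.

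Of all 45 pairs of members, 16 (35.6%) had a ratio that did not overlap between the groups. Among all 77470128 pairs of the 12448 genes with at least 1 TPM in every library, this held for 13.4%. Pairs that share a gene are not independent, and 8 of the 16 hold CD9. Without LL-37 replicate 3 the count was 19 of 45 (42.2%), against 28.9% of all pairs. The 16 were among the 19 by necessity, because leaving out a library cannot make groups that are apart overlap. The ratios come from the comparison that the genes were chosen on and are a description. RAB27B was lower relative to its partner in LL-37 libraries, without overlap, in 5 of its 9 pairs, and SDCBP and CD81 in 3 each. Each of these counts includes the pair with CD9. The TPM of RAB27B and SDCBP themselves did not overlap between the groups, so their ratios partly restate those values. The partners in these pairs had shorter transcripts, so the ratios may also carry the departure with length, which was not tested.

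The ratio of CD151 to CD81 was 1.08, 1.11 and 1.13 in LL-37 libraries and 0.969, 0.956 and 1.01 in Ctrl libraries. This ratio was singled out after its values were seen. The groups did not overlap, and the ratio of their means was 1.13. The ratio of TSPAN4 to CD81 was likewise apart, with a ratio of means of 1.16. The longest transcripts of CD151 and CD81 differ, at 1857 and 5235 bases, and part of the CD151 level may belong to POLR2L. The neighbours TSPAN4 and CD151 had a ratio of 0.536, 0.539 and 0.578 in LL-37 libraries, against 0.540, 0.528 and 0.538 in Ctrl libraries, and these overlapped.

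**Figure D3:**
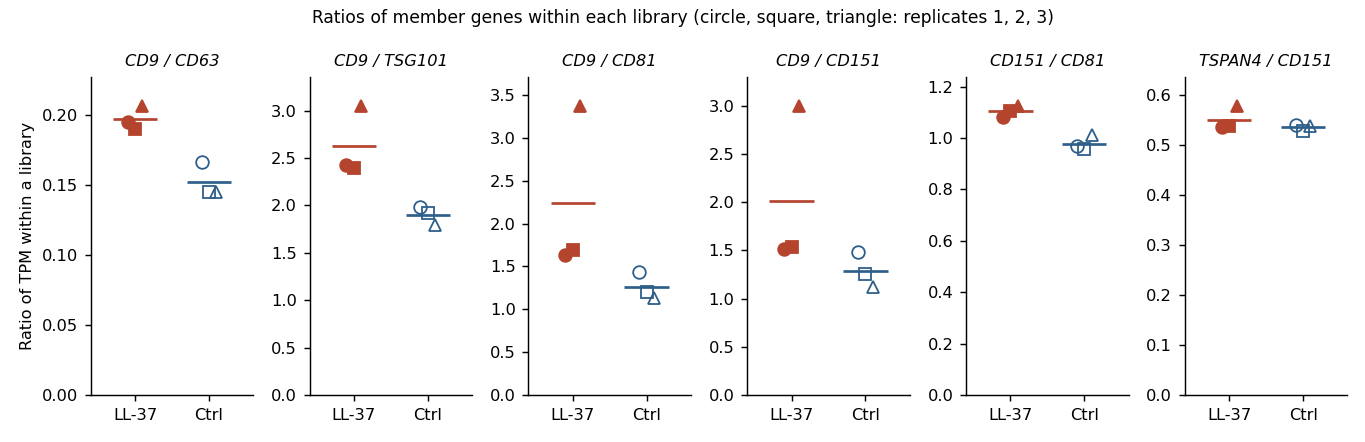
Ratio of the TPM of paired members within each library, each panel from 0, with LL-37 libraries in red and Ctrl libraries in open blue. Symbols give the replicate number and lines the group means. CD9 to CD63 lies at 0.190 to 0.206 in LL-37 libraries and 0.145 to 0.167 in Ctrl libraries, while TSPAN4 to CD151 overlaps between the groups.

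The summed tetraspanin level overlapped between the groups, and CD9 had a larger part of it in every LL-37 library. All 33 human tetraspanins had a row, 22 passed the filter, and 4 were listed at 0 in every library. The sum was 2030, 2054 and 2297 TPM in LL-37 libraries, against 1975, 2083 and 2007 TPM in Ctrl libraries. CD63 took 49.7%, 51.3% and 60.0% of this sum in LL-37 libraries and 51.2%, 52.8% and 51.0% in Ctrl libraries, so that only LL-37 replicate 3 stood out. CD9 took 9.69%, 9.74% and 12.4% in LL-37 libraries and 8.53%, 7.66% and 7.38% in Ctrl libraries, without overlap. TSPAN3, the most abundant tetraspanin outside the set, took 8.24% to 11.7% in LL-37 libraries and 11.7% to 12.9% in Ctrl libraries.

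The members' position in LL-37 replicate 3 differed along with transcript length. The log2 level in that library minus the mean of the other 5 was 0.71 for CD9, 0.41 for CD63 and 0.17 for TSG101, whose longest annotated transcripts have 1744, 1233 and 2101 bases. It was -0.93 for SDCBP and -1.16 for PDCD6IP, with 3589 and 6161 bases. The median over all tested genes was -0.12 in the shortest quartile of length, up to 2057 bases, and -1.04 in the longest, from 5155 bases. CD9, CD63, TSG101, TSPAN4, CD81 and RAB27B lay above the median of their quartile, RAB27B at -0.29 with 7281 bases. CD151, CD82, SDCBP and PDCD6IP lay below it, CD151 at -0.41 with 1857 bases. The part of length in the results was not tested. The longest annotated transcript need not be the one A375 cells use. After removal of each library's length trend, the log2 difference of CD9 was 0.56, that of SDCBP -0.20, that of PDCD6IP -0.13 and that of RAB27B 0.15. The removal also shifted whole libraries, and the median of all genes moved from -0.20 to -0.003. These values therefore do not show the part of length alone.

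**Figure D4:**
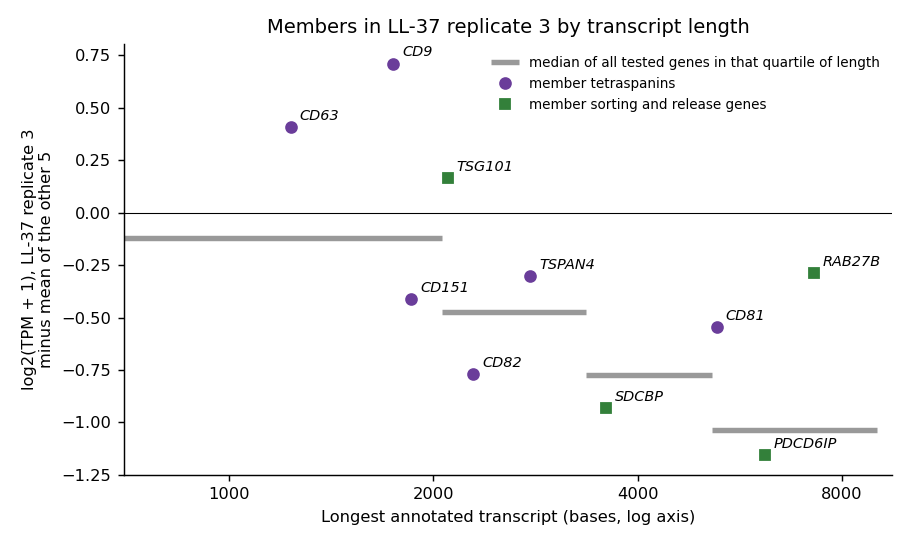
Level of each member in LL-37 replicate 3 minus the mean of the other 5 A375 libraries, in log2(TPM + 1), against the length of the longest annotated transcript (log axis). Circles are tetraspanins, squares sorting and release genes, and grey lines the median of all tested genes in each quartile of length, drawn within the plotted range. CD9 (0.71) and CD63 (0.41) lie highest and PDCD6IP (-1.16) lowest.

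By the profile over the 6 libraries, the tested genes nearest to CD9 were KRT81, CAPG and HLA-DMB, at Euclidean distances of 0.111, 0.181 and 0.188 in centred log2(TPM + 1). KRT81 averaged near 1 TPM, so its likeness rests on low values. CAPG was 94.05, 95.84 and 145.65 TPM in LL-37 libraries and 79.59, 82.28 and 80.8 TPM in Ctrl libraries. HSD17B10, DPY30 and HINT1 lay nearest to CD63, at 0.0389, 0.0465 and 0.0515. TDRKH, CALHM2 and ERI2 lay nearest to CD81, at 0.0720, 0.0745 and 0.0753. With 6 libraries, of which LL-37 replicate 3 sets most of the spread, such likeness is a description only.

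The other genes of the vesicle pathway were tested in the fit over all genes. Their lists, too, were chosen with results of this comparison known. The question was whether any gene of budding, sorting, release or cargo differed with LL-37. Of 131 genes in 8 lists, 114 were tested, and 0 passed in either direction (limma, Benjamini-Hochberg over all 14399 genes, smallest adjusted p in the lists = 0.739), where 0.0% of all genes passed. At an unadjusted p under 0.05 there were 3, all lower, against 2.52% of all genes (363). Without LL-37 replicate 3 again 0 passed (limma, smallest adjusted p = 0.190), where 0.118% of all genes passed, and 1 higher and 8 lower had an unadjusted p under 0.05, against 9.01% of all genes. The groups did not overlap for 1 higher and 19 lower genes, against 2.13% and 10.3% of all genes. Without LL-37 replicate 3 they did not overlap for 9 higher and 23 lower genes, against 12.3% and 12.9%.

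The other tetraspanins had a median log2 difference of -0.14, and -0.06 without LL-37 replicate 3 (16 of 27 tested). TSPAN3 averaged 220 ± 26.6 TPM in LL-37 cells and 248 ± 6.50 TPM in Ctrl cells, and TSPAN13 84.9 ± 13.02 and 81.9 ± 6.63 TPM. Their log2 differences were -0.18 and 0.04, and -0.07 and 0.17 without LL-37 replicate 3. TSPAN31 was 43.2 ± 5.30 TPM in LL-37 cells and 43.5 ± 7.90 TPM in Ctrl cells, and TSPAN14 35.6 ± 15.4 and 42.8 ± 2.59 TPM. TSPAN14 was at 18.3 TPM in LL-37 replicate 3, and without it the LL-37 mean was 44.2 TPM, above that of Ctrl cells. For TSPAN14 the log2 difference was -0.36, and 0.04 without that library, and that of TSPAN31 was 0.00, and -0.09 without it. TSPAN17 was the one with all LL-37 values above all Ctrl values. It averaged 21.7 ± 0.753 TPM in LL-37 cells and 19.6 ± 1.35 TPM in Ctrl cells. The nearest values, 20.89 TPM in LL-37 replicate 1 and 20.62 TPM in Ctrl replicate 2, were almost alike. The log2 difference of TSPAN17 was 0.14 with an SE of 0.14, and 0.12 with an SE of 0.09 without LL-37 replicate 3. TSPAN11 had the largest log2 difference below 0 among those apart, -0.66, at 2.81 ± 1.43 TPM in LL-37 cells and 4.70 ± 0.483 TPM in Ctrl cells. That of TSPAN11 was -0.30 without LL-37 replicate 3, and TSPAN12 then had a larger one, -0.36. Markers of blood cells in this family, CD37 and CD53, were at 0.01 TPM or less in every library.

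Membrane partners of tetraspanins had a median of -0.46, and -0.12 without LL-37 replicate 3 (11 of 12 tested). The hyaluronan receptor gene CD44 was 346 ± 105 TPM in LL-37 cells and 432 ± 23.4 TPM in Ctrl cells, a log2 difference of -0.37 that was -0.08 without that library. ITGA3, the integrin chain that CD151 binds most tightly, was 142 ± 65.7 TPM in LL-37 cells and 195 ± 6.13 TPM in Ctrl cells. LL-37 replicate 3 had 66.03 TPM of ITGA3, and the log2 difference of -0.60 was -0.12 without it. ITGA4, an integrin chain for fibronectin and VCAM1, stood at 8.55, 8.58 and 4.98 TPM in LL-37 cells, against 12.05, 11.08 and 12.77 TPM in Ctrl cells. All LL-37 values of ITGA4 lay below all Ctrl values, with log2 differences of -0.66 and, without LL-37 replicate 3, -0.44 (limma adjusted p = 0.739 and 0.190).

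ESCRT subunits other than TSG101 had a median of -0.17, and -0.03 without LL-37 replicate 3 (30 of 30 tested). CHMP2A, a subunit of the ESCRT-III filament that closes the bud, stood at 234.94, 250.16 and 230.31 TPM in LL-37 cells, against 277.59, 277.55 and 276.4 TPM in Ctrl cells. LL-37 replicate 3 lay with its group here, and the log2 difference was -0.22 with all libraries and -0.19 without that library (limma adjusted p = 0.739 and 0.292). SNF8, an ESCRT-II subunit, was 135 ± 26.2 TPM in LL-37 cells and 152 ± 9.01 TPM in Ctrl cells, a log2 difference of -0.18 that was -0.01 without that library. STAM2, an ESCRT-0 subunit, was 4.39 ± 0.176 and 5.46 ± 0.796 TPM, a log2 difference of -0.25 that was -0.23 without it.

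Syndecans and their syntenin partners had a median of -0.23, and 0.06 without LL-37 replicate 3 (10 of 10 tested). SDC4 and SDC3 code for cell surface proteoglycans. SDC4 stood at 61.87, 62.43 and 41.11 TPM in LL-37 cells, against 53.66, 52.65 and 55.67 TPM in Ctrl cells, so that LL-37 replicate 3 lay below and the other LL-37 libraries above the Ctrl range. SDC3 stood at 24.21, 24.51 and 7.67 TPM in LL-37 cells, against 28.91, 31.28 and 36.85 TPM in Ctrl cells, with all LL-37 values lower. With all libraries the log2 differences were 0.005 for SDC4 and -0.90 for SDC3 (limma adjusted p = 0.990 and 0.739). Without LL-37 replicate 3 the log2 differences were 0.20 for SDC4 and -0.39 for SDC3 (limma adjusted p = 0.370 and 0.277).

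Rab GTPases and the release machinery had a median of -0.21, and -0.01 without LL-37 replicate 3 (19 of 23 tested). RAB7A, the late endosome GTPase, was 228 ± 47.8 TPM in LL-37 cells and 248.9 ± 8.74 TPM in Ctrl cells. Without LL-37 replicate 3 the LL-37 mean of RAB7A was 254.9 TPM, and the log2 difference turned to 0.03 where it had been -0.15. RAB11A, of recycling endosomes, was 183 ± 14.3 TPM in LL-37 cells and 210 ± 2.12 TPM in Ctrl cells, with groups apart and a log2 difference of -0.21, or -0.14 without that library. RAB31 had the largest log2 difference below 0 among those apart, -0.55, at 5.11 ± 1.48 TPM in LL-37 cells and 7.81 ± 1.45 TPM in Ctrl cells. That of RAB31 was -0.33 without LL-37 replicate 3, and SYTL1 then had a larger one, -0.40. Genes of the ceramide route, which buds vesicles without ESCRT, had a median of -0.20, and -0.01 without LL-37 replicate 3 (6 of 7 tested). CERS2, a ceramide synthase gene, was 226 ± 61.3 TPM in LL-37 cells and 259 ± 11.6 TPM in Ctrl cells. CERS2 was at 154.8 TPM in LL-37 replicate 3, and without it the log2 difference turned to 0.01 where it had been -0.24. ASAH1, the acid ceramidase gene, was 46.3 ± 5.53 TPM in LL-37 cells and 54.2 ± 1.73 TPM in Ctrl cells, a log2 difference of -0.23 that was -0.13 without that library.

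Other proteins often found in vesicles had a median of -0.19, and -0.06 without LL-37 replicate 3 (13 of 13 tested). HSPA8 was 814 ± 131 TPM in LL-37 cells and 770.4 ± 51.03 TPM in Ctrl cells, and HSP90AB1 617 ± 162 and 725 ± 25.9 TPM, both of them chaperone genes. For HSPA8 the log2 difference was 0.07, and turned to -0.06 without LL-37 replicate 3, and that of HSP90AB1 was -0.27, and -0.03 without it. TFRC, the transferrin receptor gene, was 88.6 ± 17.1 TPM in LL-37 cells and 108 ± 5.20 TPM in Ctrl cells, a log2 difference of -0.29 that was -0.13 without that library. RNA binding proteins named in the loading of vesicle RNA had a median of -0.36, and 0.01 without LL-37 replicate 3 (9 of 9 tested). HNRNPA1 was 1822 ± 636 TPM in LL-37 cells and 2156 ± 201 TPM in Ctrl cells, and YBX1 753 ± 104 and 811 ± 59.3 TPM. The lower LL-37 means came from LL-37 replicate 3, at 1088 TPM for HNRNPA1 and 632.4 TPM for YBX1. Without it the log2 differences turned to 0.03 and 0.01, where they had been -0.31 and -0.11. MVP, the major vault protein gene, was 58.6 ± 25.5 TPM in LL-37 cells and 81.9 ± 5.70 TPM in Ctrl cells, a log2 difference of -0.59 that was -0.16 without LL-37 replicate 3.

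**Figure D5:**
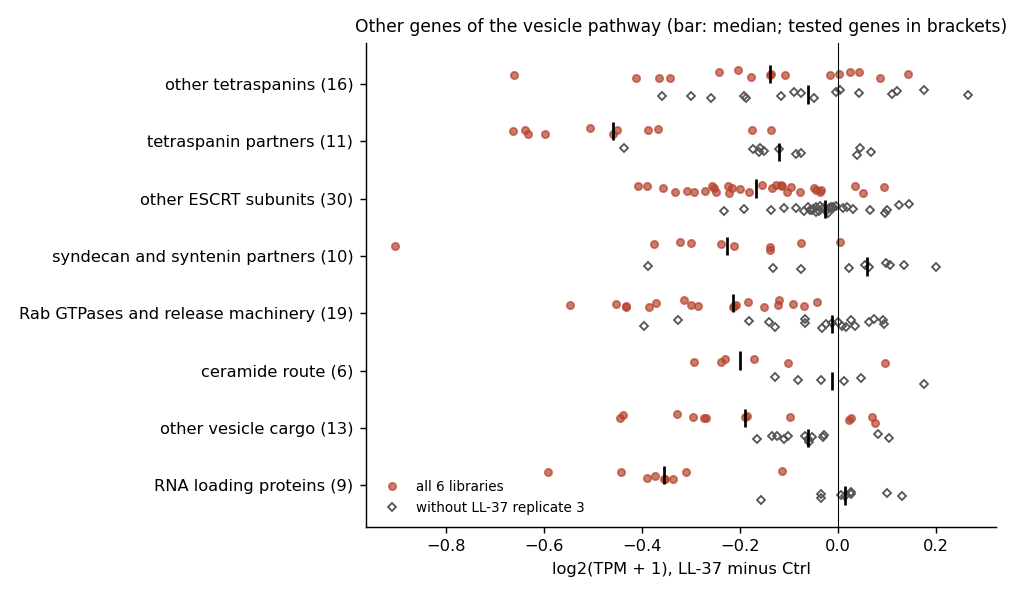
Difference in log2(TPM + 1), LL-37 minus Ctrl, of each tested gene in the 8 pathway lists, with all 6 libraries (red circles, upper row) and without LL-37 replicate 3 (open diamonds, lower row). Black bars are list medians and the number of tested genes is in brackets. The medians run from -0.46 to -0.14 with all libraries and from -0.12 to 0.06 without that library.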

How the data were processed

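RNA of A375 cells was sequenced from stranded mRNA libraries, per the labels' protocols. The authors deposited gene levels as TPM, 1 column per library, scaled to a common total per library. The build GRCh38 is named in the submitters' processing notes, while aligner, quantifier, annotation and strand setting were not given in the sources used here. Depth cannot be read from TPM, so counting precision is unknown. The series' design text calls the libraries biological triplicates. The mouse libraries, whose labels contradict each other on genotype, were not used here.

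Identifiers were matched to symbols by a gene name table (62541 of 63140). A pseudocount of 1 TPM was added before taking log2. A gene entered the fit if 3 libraries or more reached 1 TPM (14399 genes). The tool was limma 3.58.1 (R 4.3.3), two-sided and with its variance trend on intensity, with a Benjamini-Hochberg adjusted p under 0.05 as threshold. The fit was checked on simulated data with independent noise and no outlying library. That check does not cover the departure of LL-37 replicate 3. Members received an estimate and SE but no test. Members and lists were chosen with earlier results of these data known. Named from each list were the 2 most abundant genes (5 for tetraspanins), the largest log2 difference above and below 0 among genes with groups apart, and any gene past the threshold. Groups were called apart where all LL-37 values lay above, or all below, every Ctrl value. GENCODE 29 supplied loci, and the longest transcript of a gene its length. Figures were drawn with matplotlib 3.10.9 in Python 3.11.15. Alternatives covered the pseudocount, filter, scaling, length trend, replicate block, intensity trend and each library left out. All columns of the human table were used.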

Additional observations from a re-analysis of the deposited data

How the results depend on the processing

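The count of 0 genes past the threshold became 17 without LL-37 replicate 3 and 13 when its omission was joined with removal of the length trend, and was 0 in the other settings, so that leaving out each library gave 0 to 17. The count of 0 pathway genes was 0 in all 17 alternative settings. The median log2 difference of the members, -0.12, became 0.082 with median-of-ratios scaling and 0.083 with length trends removed, 0.02 with quantile normalization, and ran from -0.21 to -0.02 when each library was left out. The cause was not tested. Median-of-ratios scaling moved the median of all genes from -0.20 to 0.00, and removal of length trends moved it to -0.003. CD9 (0.32 to 0.74), PDCD6IP (-0.68 to -0.10) and SDCBP (-0.59 to -0.15) kept their sign in all 17 alternatives, while RAB27B turned to 0.15 with length trends removed and CD81 to 0.04. Of 168 member values under an alternative, 153 moved by less than the spread between replicates. That spread includes LL-37 replicate 3, so the count does not show that the values held. CD82, for one, turned from -0.16 to 0.12 within it when that library was left out. Pairs of members apart numbered 16 to 23 and pairs with CD9 8 to 9 when each library was left out, settings added after the data were seen. Groups that are apart cannot come to overlap when a library is left out, so these counts could only stay or rise. Without LL-37 replicate 3 the share over all gene pairs rose too, from 13.4% to 28.9%. That share was not computed for the other omissions, so nothing is read from these ranges. Whether the replicate numbers pair the libraries was not settled. Deviations of same-numbered libraries from their group means correlated at 0.0912, -0.196 and -0.168. LL-37 replicate 3 sets much of the deviations in the LL-37 group, so these correlations cannot decide it. The replicate block gave 0 genes and a member median of -0.12. With 3 libraries a group and an unknown depth, the low levels of RAB27B and CD82 limit what can be said of them.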
